A study of Mus musculus with 2 samples.

Results

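The activin subunit genes Inhba and Inhbb, the follistatin genes Fst and Fstl3, and the activin receptor genes Acvr1, Acvr1b, Acvr2a and Acvr2b were examined in single biliary epithelial cells of mouse liver. These 8 genes were taken by name from a gene table of 55415 genes, and each name matched 1 gene. Biliary epithelial cells line the bile ducts. There was 1 library of genotype Sox9cKO and 1 of genotype Sox9con, each from liver and each labelled as this cell type. Sox9 encodes a transcription factor of these cells. The driver of the deletion, its allele, and the strain, age, treatment and number of the mice are not given in the sources used here. The libraries are called cKO-labelled and control-labelled below. With 1 library per genotype there is no replicate and no test of the genotypes, so no p-value is given and every interval is a 95% interval of counting error only.

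Activins are secreted dimers of the beta A subunit, encoded by Inhba, and the beta B subunit, encoded by Inhbb. They bind a type II receptor, ACVR2A or ACVR2B, which then activates a type I receptor, chiefly ACVR1B, and that receptor passes the signal to SMAD2 and SMAD3. ACVR1 is a type I receptor used mainly by bone morphogenetic proteins, and activins can also bind it. Follistatin, from Fst, and its relative FSTL3 bind activins outside the cell and keep them from the receptors, and Fst is itself a known target of activin signalling. In the liver, activin A is known to restrain hepatocyte growth and to act on matrix-producing cells.

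The bases before the starts of the 2 subunit genes are shown because these genes encode partner subunits of activins and were distributed differently over the cells, as described below. They are the 250 bases before the start on the gene's own strand, from RefSeq on GRCm38.p6, an older build than the GRCm39 on which the deposited counts were made. Capitals mark a match, on either strand, to the SOX letters ACAAAG or ACAATG, the SMAD box CAGAC, the AP-1 letters TGANTCA or the TEAD letters GGAATG. Inhba lies on the plus strand at chr13:16011601-16011850 and Inhbb on the minus strand at chr1:119422249-119422498, and no GENCODE exon falls in either window.
Inhba: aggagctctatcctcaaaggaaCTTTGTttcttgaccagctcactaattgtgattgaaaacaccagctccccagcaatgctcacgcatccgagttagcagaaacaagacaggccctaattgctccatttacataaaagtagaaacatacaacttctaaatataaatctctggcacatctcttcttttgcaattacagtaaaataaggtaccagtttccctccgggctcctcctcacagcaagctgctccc
Inhbb: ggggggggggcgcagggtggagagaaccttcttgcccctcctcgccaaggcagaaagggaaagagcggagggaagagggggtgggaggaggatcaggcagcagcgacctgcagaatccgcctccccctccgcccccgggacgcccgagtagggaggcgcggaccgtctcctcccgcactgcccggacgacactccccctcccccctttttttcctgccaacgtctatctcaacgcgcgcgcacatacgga
The Inhba window held 1 match, to ACAAAG read on the opposite strand, and the Inhbb window held none. Of 32851 promoter windows of the same length, 16.5% held ACAAAG, 10.7% ACAATG, 42.2% CAGAC, 6.75% TGANTCA and 12.6% GGAATG. The windows differed in base composition, with 43.2% G and C and 3 CG pairs before Inhba and 68.0% and 21 CG pairs before Inhbb, against a median of 52.4% G and C over all windows. The RefSeq promoter table held 7 of the 8 genes and lacked Fst. Among the windows not shown, that of Fstl3 held 1 match to ACAAAG, 1 to ACAATG and 2 to CAGAC. The window of Acvr2b held 1 match to ACAAAG and 1 to CAGAC, and that of Acvr2a 1 to CAGAC. Those of Acvr1 and Acvr1b held none. The ACAAAG match was thus not particular to Inhba. A match describes letters and shows neither a site in use nor a cause of any level below.

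From the cKO-labelled library 2713 of 2740 deposited cells were kept and from the other 3507 of 3622, each with at least 500 genes, at least 1000 unique molecular identifiers (UMIs, counted transcripts) and at most 15% mitochondrial UMIs. Biliary cells were kept cells with a UMI of Epcam or Krt19 and fewer than 5 UMIs over the endothelial genes Ptprb, Stab2, Kdr and Flt1. There were 2548 such cells with 14262033 UMIs in the cKO-labelled library and 3295 with 12031403 UMIs in the control-labelled library, at median depths of 5194.5 and 3259 UMIs per cell. Cells with 5 or more endothelial UMIs numbered 88 and 120, and 77 and 92 cells fell in neither class. The cell type was checked with markers that the class rule did not use, in CPM (UMIs of a gene per 1000000 UMIs). The 12 such biliary markers were all detected in the biliary cells and summed to 10714 and 15850 CPM there, against 2960 and 2421 CPM in the endothelial cells. The 8 such endothelial markers summed to 20.4 and 29.8 CPM in biliary and 3921 and 5033 CPM in endothelial cells. The biliary sum was lower in every cKO-labelled well (9911 to 11451 CPM) than in every control-labelled well (13289 to 18450 CPM). It was thus lower in the wells where Inhba and Fst were higher, and its part in the ratios below was not tested. Sox9 itself gave no clear check of the genotype labels. Its level in biliary cells was 121 CPM against 146 CPM for the control-labelled library, a log2 ratio of -0.27 (-0.36 to -0.17). The cKO-labelled well was the lower in 10 of 20 pairs of wells. Well D9 held 851 of the 1755 control-labelled Sox9 UMIs, at 221 CPM. The other control-labelled wells stood at 93.6 CPM (D10), 74.5 (D11) and 153 (D12), and the cKO-labelled wells at 101 to 144 CPM. At equal depth, by the thinning described below, 20.1% and 19.9% of biliary cells held a Sox9 UMI, cKO-labelled first. Every direction below therefore rests on the labels. No cell barcode was shared by the libraries.

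The cells of each library lay in first-round barcoding wells of their own, 5 for the cKO-labelled library (A11, A12, B1, B2 and B3) and 4 for the control-labelled library (D9 to D12). These wells give a technical spread, since nothing in the labels says that they hold different mice, and wells and genotype cannot be told apart. All 8 genes had the 200 UMIs over both libraries that were set as the minimum for a comparison, as did 9296 genes in all. Over those 9296 genes the median log2 ratio of the cKO-labelled over the control-labelled library was -0.07, and a rise of 2-fold or more was seen for 2.25% of genes and a fall of that size for 1.73%. The lower count depended on 1 well, with 161 genes in all and 386 without D9. Of the 8 genes, 2 passed 2-fold upwards, Inhba and Fst, and 0 downwards. Their median log2 ratio was -0.15. In 7.57% of all tested genes every cKO-labelled well stood above every control-labelled well and in 8.48% every one stood below, and of the 8 genes this held for 2 above, again Inhba and Fst, and for 1 below, Fstl3.

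**Figure D1:**
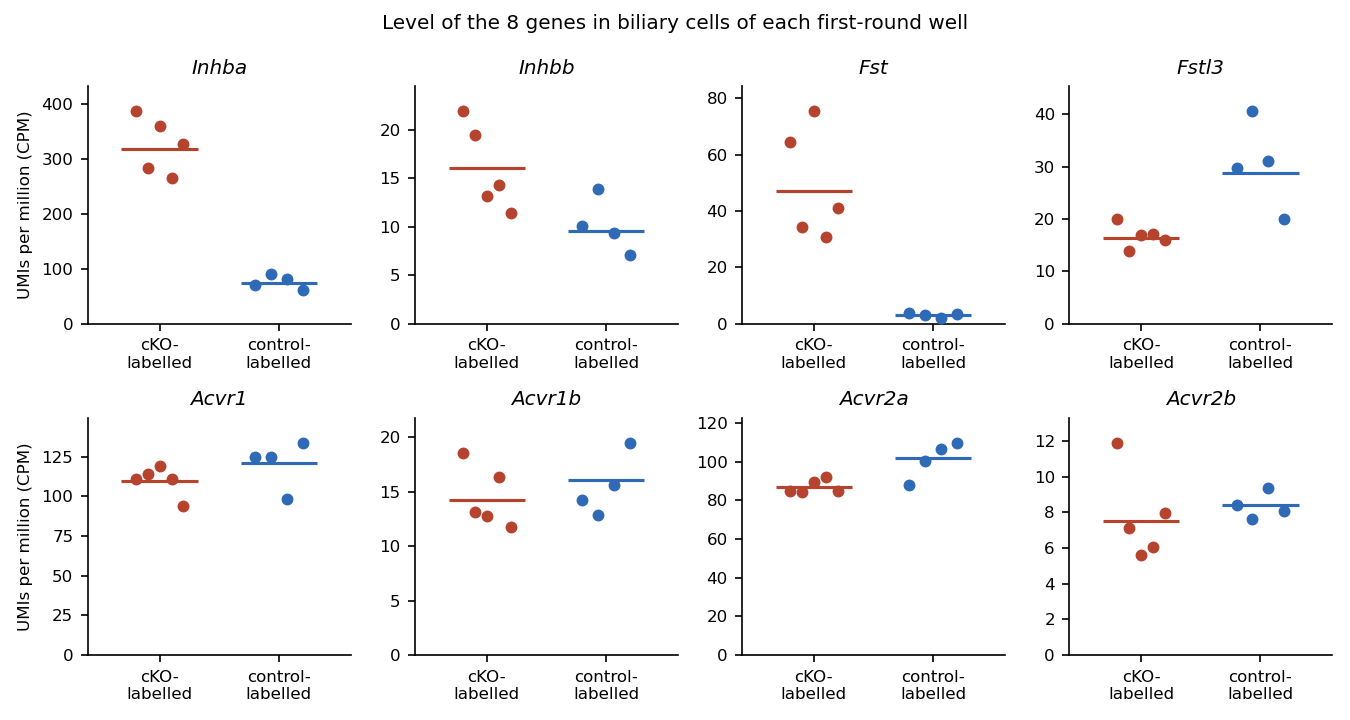
Level of each of the 8 genes in CPM (vertical axis from 0) in biliary cells of each first-round well, with cKO-labelled wells in red and control-labelled wells in blue. Points are wells and lines are whole-library levels. The red points of Inhba (266 to 387 CPM) and Fst (30.6 to 75.4 CPM) lie above all blue points, and those of the 4 receptors overlap with the blue ones.

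Inhba, the gene of the beta A subunit, was 4.31-fold higher in the cKO-labelled biliary cells than in the control-labelled ones. It stood at 387 CPM in well A11, 283 in A12, 361 in B1, 266 in B2 and 327 in B3 of the cKO-labelled library. In the control-labelled library it stood at 61.6 CPM in D9, 70.9 in D10, 90.7 in D11 and 81.0 in D12. The lowest cKO-labelled well was thus well above the highest control-labelled well, and the wells of 1 library differed by at most 1.47-fold. Over all biliary cells the counts were 4541 and 889 UMIs, or 318 CPM (309.2 to 328) and 73.9 CPM (69.1 to 78.9). The log2 ratio was 2.11 (2.003 to 2.21), which placed Inhba at the 99.5th percentile of all tested genes, and it was positive in 8 of 8 sublibraries, the sets of cells sequenced apart that each hold cells of both libraries.

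Inhbb, the other subunit gene, was scarce in biliary cells. Its levels were 21.9 CPM in A11, 19.5 in A12, 13.1 in B1, 14.3 in B2 and 11.4 in B3, against 7.02 in D9, 10.04 in D10, 13.8 in D11 and 9.33 in D12. The wells of the libraries overlapped, with 2 of the 5 cKO-labelled wells below D11. The library levels were 16.0 CPM (14.0 to 18.2) and 9.56 CPM (7.89 to 11.5), and the log2 ratio was 0.74 (0.41 to 1.08).

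Fst, the gene of follistatin, had the highest ratio of the 8. It stood at 64.6 CPM in A11, 34.5 in A12, 75.4 in B1, 30.6 in B2 and 41.2 in B3. Among control-labelled wells it stood at 3.38 CPM in D9, 3.56 in D10, 2.86 in D11 and 2.0 in D12, from 36 UMIs in all. The wells were far apart between the libraries and also differed by up to 2.46-fold within the cKO-labelled one. Over all biliary cells the levels were 47.2 CPM (43.7 to 50.9) and 2.99 CPM (2.10 to 4.14). The log2 ratio of 3.96 (3.50 to 4.51) was at the 99.9th percentile of tested genes and positive in 8 of 8 sublibraries.

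Fstl3, the relative of Fst, went the other way. Its levels were 19.96 CPM in A11, 13.95 in A12, 16.9 in B1, 17.1 in B2 and 15.9 in B3 of the cKO-labelled library. In the control-labelled library they were 20.01 CPM in D9, 29.8 in D10, 40.6 in D11 and 31.0 in D12. No cKO-labelled well reached the lowest control-labelled well, but wells A11 and D9 all but touched. The library levels were 16.4 CPM (14.4 to 18.7) and 28.8 CPM (25.9 to 32.0), a log2 ratio of -0.81 (-1.06 to -0.57) that was negative in 8 of 8 sublibraries. Without well D9 it was -1.01, just past 2-fold.

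The 4 receptors differed little between the libraries. Acvr1 stood at 93.9 to 119 CPM over the cKO-labelled wells and 98.0 to 134 CPM over the control-labelled wells, with a log2 ratio of -0.14 (-0.24 to -0.03). Acvr1b, the main type I receptor of activins, ranged over 11.8 to 18.5 CPM and 12.9 to 19.5 CPM, with a ratio of -0.17 (-0.46 to 0.12). The type II receptor Acvr2a ranged over 84.2 to 91.9 CPM and 88.1 to 109.7 CPM, with a ratio of -0.23 (-0.34 to -0.11), and Acvr2b over 5.63 to 11.9 CPM and 7.64 to 9.33 CPM, with a ratio of -0.16 (-0.57 to 0.25). For all 4 the wells of the libraries overlapped, and the ratios lay between the 32.2nd and the 41.4th percentile of all tested genes. The intervals of Acvr1b and Acvr2b spanned 0 and leave room for a difference of up to 0.57 on the log2 scale.

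**Figure D2:**
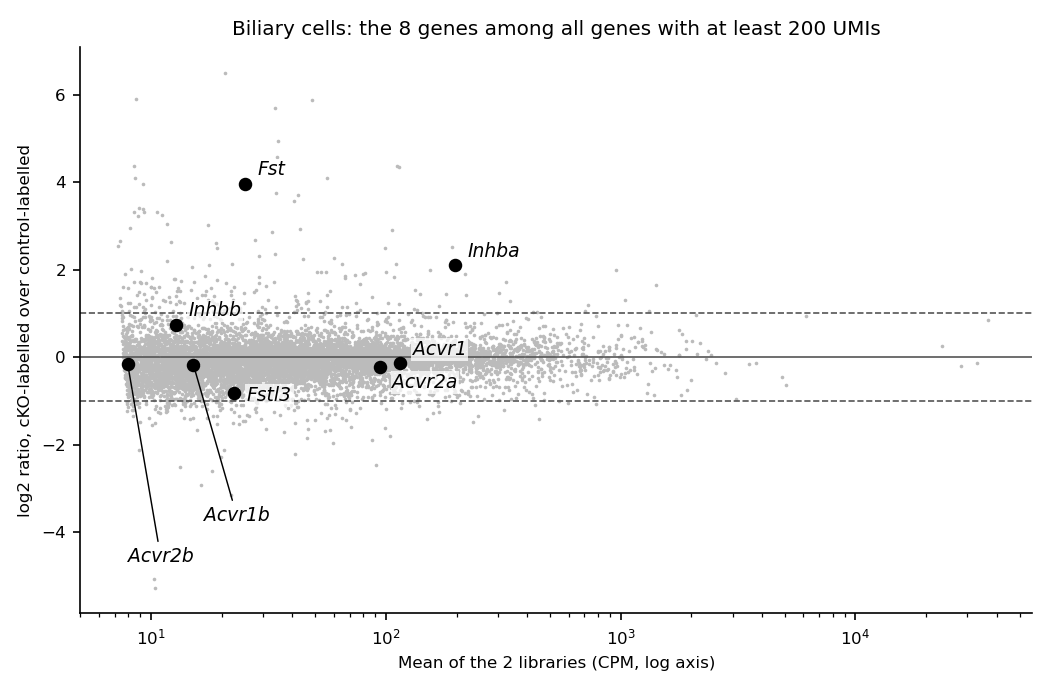
Log2 ratio of the cKO-labelled over the control-labelled library in biliary cells (vertical axis) against the mean level of both libraries in CPM (horizontal log axis) for 9296 genes, in grey, with the 8 genes in black. Dashed lines mark 2-fold. Fst (3.96) and Inhba (2.11) lie above the upper line and the other 6 genes lie between the lines.

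Levels of different genes were compared only per kilobase of exon, using GENCODE gene models for GRCm38, which may differ from those behind the counts. In cKO-labelled biliary cells the order was Inhba (49.8 CPM per kilobase), Acvr1 (22.7), Acvr2a (15.3), Fst (10.3), Fstl3 (6.71), Inhbb (3.76), Acvr1b (3.22) and Acvr2b (1.91). In control-labelled biliary cells it was Acvr1 (25.0), Acvr2a (17.9), Fstl3 (11.8), Inhba (11.6), Acvr1b (3.63), Inhbb (2.25), Acvr2b (2.14) and Fst (0.652). Within each receptor type, the more abundant gene per kilobase was Acvr1 over Acvr1b and Acvr2a over Acvr2b in both libraries. In the older annotation Inhba overlaps the genes B230303A05Rik and Gm48444 on the opposite strand, which had 47 and 90 UMIs in cKO-labelled biliary cells. Acvr2a overlaps Orc4, which had 1383 UMIs there. Whether the counting used strand is not given in the sources used here, so reads of overlapping genes may not be told apart.

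Shares of cells with a UMI were compared after each cell was thinned to 2000 UMIs, because the cKO-labelled cells were deeper. This left 2438 and 2778 biliary cells, with 110 and 517 shallower cells left out. An Inhba UMI was seen in 18.05% of cKO-labelled cells (16.5 to 19.6) and 8.71% of control-labelled cells (7.69 to 9.82). For Fst the shares were 4.68% (3.87 to 5.59) and 0.504% (0.276 to 0.844). Both genes were thus seen in more cKO-labelled cells at equal depth, and for Inhba each positive cell also held more, 3.08 UMIs against 1.75. Inhbb was seen in 3.36% (2.68 to 4.16) and 1.84% (1.37 to 2.41), and Fstl3 in 3.40% (2.72 to 4.20) and 4.90% (4.12 to 5.76). The intervals of the receptor shares overlapped between the libraries, at 18.01% and 19.1% for Acvr1, 2.79% and 2.48% for Acvr1b, 15.4% and 16.9% for Acvr2a, and 1.44% and 1.87% for Acvr2b. Without thinning, at median depths of 5194.5 and 3259 UMIs, the shares were 27.5% and 11.9% for Inhba, 8.20% and 0.728% for Fst, 7.77% and 3.16% for Inhbb, and 7.42% and 8.62% for Fstl3. They were 39.9% and 29.9% for Acvr1, 6.59% and 4.98% for Acvr1b, 32.0% and 25.9% for Acvr2a, and 3.69% and 2.85% for Acvr2b. For the 4 receptors this order went against that of the CPM, so no difference is read from the unthinned shares. In endothelial cells, at median depths of 2718.5 and 2419 UMIs before thinning, the thinned Inhba shares were 1.61% (1 of 62 cells) and 1.32% (1 of 76).

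Inhba counts were concentrated in few cells. In the cKO-labelled library 120 biliary cells (4.71%, 3.92 to 5.61) held 10 or more Inhba UMIs, and together they held 66.5% of its Inhba UMIs against 6.93% of all UMIs. Such cells were found in all 5 wells. In the control-labelled library 11 cells (0.334%, 0.167 to 0.597) held 10 or more, with 18.7% of the Inhba UMIs. The highest count in 1 cell was 104 UMIs, against 36 among control-labelled cells. A cut at 10 UMIs depends on level and depth. In unthinned counts, 0.5 of the Inhba UMIs were held by 65 cKO-labelled cells (2.55%) and by 62 control-labelled cells (1.88%). This second measure sets no fixed cut but also depends on level and depth, so the libraries are not compared by it. Fst had 12 cells with 10 or more UMIs in the cKO-labelled library, with 27.8% of its UMIs, and 0 in the control-labelled library, which allows a share of up to 0.091% by the limit of 3 counts of the total used for a count of 0. The receptors were spread more evenly, and for Acvr1 only 1 cell in either library held 10 or more UMIs.

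**Figure D3:**
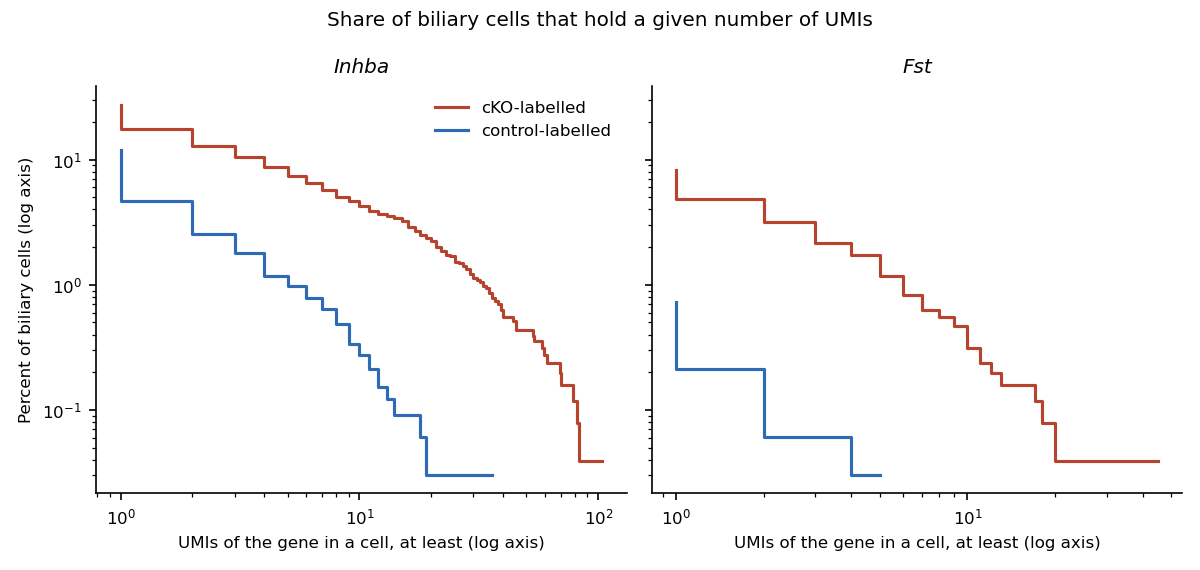
Share of biliary cells in percent (vertical log axis) that held at least a given number of UMIs of Inhba or Fst (horizontal log axis), without thinning, in the cKO-labelled (red) and control-labelled (blue) library. The red curve of Inhba reaches 104 UMIs in a cell and the blue one 36, and for Fst they reach 45 and 5.

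Cells of both libraries were clustered together with the 8 genes and Sox9 left out, and clusters are called by leading genes. Inhba was highest in a cluster led by Hp, Serpina1b, C1s1 and Hpx, genes of plasma proteins, which held 526 cKO-labelled biliary cells and 1 control-labelled one. There it reached 951 CPM (919 to 983), with 74.6% of the library's Inhba UMIs in 20.6% of its biliary cells. The cKO-labelled cells of this cluster were deeper, at a median of 6310 UMIs against 5194.5 over all biliary cells of the library. Shares of UMIs and of cells are therefore not on the same base, and the CPM account for depth. Fst reached 167 CPM (154 to 181) in the same cluster, with 88.7% of its UMIs. A cluster led by Medag, Ces1c and Itih4, with 663 cKO-labelled cells and 2 control-labelled ones, had Inhba at 229 CPM and Fst at 14.5 CPM. A cluster made up of 1 library may be that library and not a cell type, so in these 2 clusters genotype, library and cluster cannot be told apart.

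The Hp cluster was present in each of the 5 cKO-labelled wells, at 19.8% to 21.7% of biliary cells. Inside it, Inhba stood at 1104 CPM in A11, 855 in A12, 1088 in B1, 894 in B2 and 886 in B3. In the other cells of those wells it stood at 132 CPM in A11, 104 in A12, 122 in B1, 59.6 in B2 and 129 in B3, against 61.6 to 90.7 in all cells of the control-labelled wells. These other cells include the Medag cluster, with Inhba at 229 CPM. Without the Hp and Medag clusters the log2 ratio of Inhba was -0.93. Fst inside the cluster ran from 111 CPM in B2 to 261 in B1, and in the other cells from 4.26 CPM in B2 to 14.4 in B1. High levels of both genes in this cluster were thus found in every cKO-labelled well.

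The 6 clusters with at least 40 biliary cells of each library held 1342 and 3279 cells, and in each of them the Inhba intervals of the libraries overlapped. Inhba stood at 164 and 153 CPM (cKO-labelled first) in the cluster led by Adgrv1 and Ctnna2, and at 118 and 140 CPM in that with Mmp25 and Dnah12 among its leading genes. It stood at 45.8 and 42.8 CPM in the Msln and Tff2 cluster, 45.1 and 60.9 CPM in the Ly6a and Cd14 cluster, and 10.3 and 16.5 CPM in the Muc6 cluster. In the Ltf and Muc4 cluster there were only 3 and 8 UMIs, or 4.28 and 8.24 CPM. The order of the clusters was the same in both libraries except that the Msln and Ly6a clusters, whose intervals overlapped in the cKO-labelled library, changed places. At an equal mix of the 6 clusters (Mantel-Haenszel ratio, an alternative added after the data were seen) the log2 ratio of Inhba was -0.10 (-0.34 to 0.13) and that of Fst, from 20 and 36 UMIs, 0.90 (-0.22 to 2.01). With the Hp and Medag clusters left out and the remaining cells pooled as they came, also added after the data were seen, the ratios were -0.93 for Inhba and -0.03 for Fst, so that neither was higher in the cKO-labelled library. The higher Inhba level of the whole cKO-labelled library was therefore not seen beyond counting error within the clusters that the libraries share. For Fst the counts were too few to decide, and the interval reached 2.01. In the Ly6a and Cd14 cluster, 3 and 2 Fst UMIs gave 9.66 CPM (1.99 to 28.2) and 0.532 CPM (0.064 to 1.92), which did not overlap. The Msln cluster held 11 and 1 Fst UMIs and the Muc6 cluster 6 and 2. The Adgrv1, Mmp25 and Ltf clusters held 0 cKO-labelled Fst UMIs against 24, 5 and 2 control-labelled ones.

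Other genes of the 8 had their highest levels elsewhere. Fstl3 was highest in the Adgrv1 cluster, at 76.2 CPM (40.6 to 130) and 67.4 CPM (57.3 to 78.8), and next highest in the control-labelled cells of the Mmp25 and Dnah12 cluster at 53.9 CPM (41.9 to 68.2), where 5 UMIs gave 16.4 CPM in the cKO-labelled cells. The Adgrv1 cluster held 642 control-labelled and 42 cKO-labelled biliary cells. In the cKO-labelled library the Hp cluster held 44.9% of the Fstl3 UMIs, at 29.5 CPM. At an equal mix of the shared clusters the log2 ratio of Fstl3 was -0.45 (-0.84 to -0.05). Of the 36 control-labelled Fst UMIs, 24 were in the Adgrv1 cluster. In the Ltf and Muc4 cluster, where Inhba was lowest, Inhbb was highest in both libraries and Acvr1b in the cKO-labelled one, among clusters of at least 40 cells. There Inhbb stood at 37.1 CPM (24.2 to 54.3) and 22.7 CPM (14.2 to 34.3) and Acvr1b at 35.7 CPM (23.1 to 52.6) and 24.7 CPM (15.8 to 36.8), while in control-labelled cells Acvr1b was higher in the Muc6 cluster, at 33.0 CPM (24.5 to 43.5). Acvr1 stayed between 70.3 and 132 CPM and Acvr2a between 62.5 and 128 CPM over these clusters in either library. Their intervals within a cluster excluded 0 in 1 cluster each, for Acvr1 in the Adgrv1 cluster (log2 ratio -0.91, -1.88 to -0.09) and for Acvr2a in the Mmp25 and Dnah12 cluster (-1.03, -1.80 to -0.35).

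**Figure D4:**
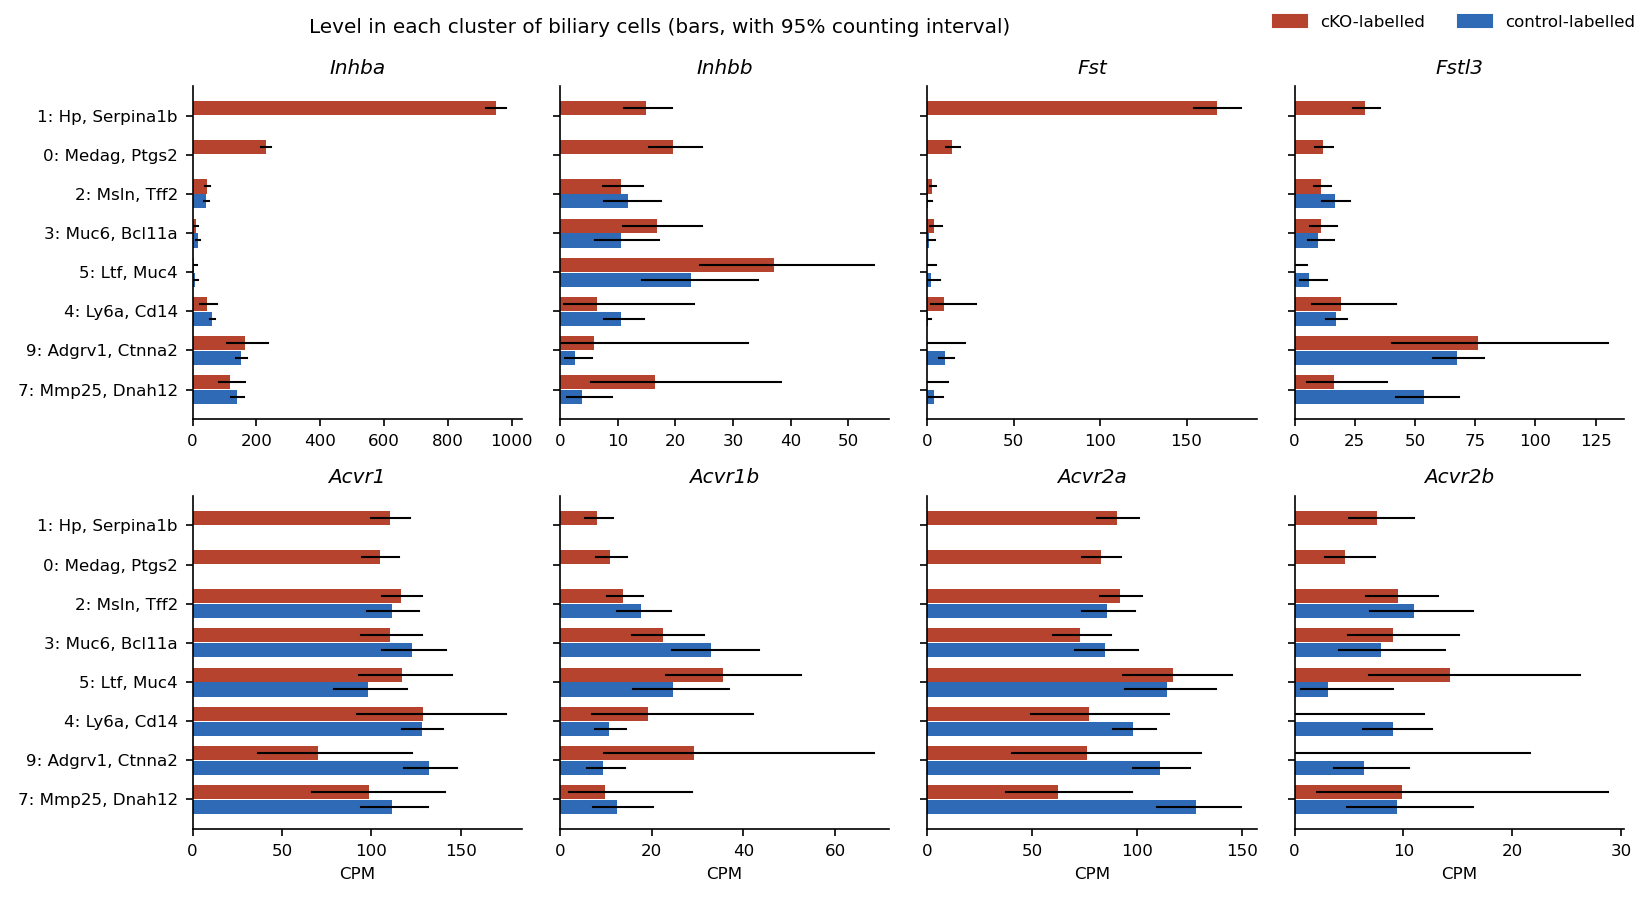
Level in CPM (horizontal axes from 0, different for each gene) of the 8 genes in 8 clusters of biliary cells, named by 2 of their leading genes, with cKO-labelled cells in red, control-labelled cells in blue and 95% counting intervals as lines. Bars are left out where a library held fewer than 40 cells of a cluster. Inhba and Fst are highest in the Hp cluster (951 and 167 CPM), Fstl3 in the Adgrv1 cluster, and the intervals of the red and blue Inhba bars overlap in the 6 shared clusters.

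Marker lists of other cell types were summed in the same cells. The Hp cluster held hepatocyte markers at 1099 CPM with 9 of 10 detected and Cyp2e1 at 0, and the Medag cluster held them at 1105 CPM with Slc10a1 at 0, against 225 CPM in the cKO-labelled cells of the Msln cluster. In control-labelled cells the list was at 1246 CPM in the Mmp25 and Dnah12 cluster and at 890 CPM in the Adgrv1 cluster. Mesenchymal markers summed to 225 CPM in the Hp cluster with Pdgfrb, Pdgfra, Des and Lrat at 0. They summed to 345 CPM in control-labelled cells of the Adgrv1 cluster with Dcn, Pdgfrb, Pdgfra and Acta2 at 0. In cKO-labelled cells of the Adgrv1 cluster and of the Mmp25 and Dnah12 cluster, Rgs5 was the 1 mesenchymal marker detected, at 346 and 65.8 CPM. How much of the other mesenchymal sums, here and below, came from Rgs5 was not tested. Over the wells, hepatocyte markers ranged from 512 to 799 CPM in the cKO-labelled and from 501 to 631 CPM in the control-labelled biliary cells. Mesenchymal markers ranged from 77.2 to 119 CPM and from 113 to 139 CPM, and all 10 of each list were detected in each library. Immune markers summed to 71.2 CPM in the Hp cluster, with Ptprc, Adgre1, Clec4f, Cd3e, Lyz2 and S100a8 at 0. They summed to 98.7 CPM in cKO-labelled and 64.9 CPM in control-labelled cells of the Mmp25 and Dnah12 cluster, and to 30.2 CPM in the Medag cluster. The part of such RNA in the levels of Inhba and Fst was not tested.

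Inhba and Fst were found in the same cells more often than the product of their shares gives. In thinned cKO-labelled cells 53 held a UMI of both, against 20.6 from the product, a ratio of 2.58 (1.93 to 3.37). Put per cell, 12.0% of cells with Inhba also had Fst, against 4.68% of all cells. Summed within clusters the product gave 50.6 cells, and the ratio was 1.05 (0.78 to 1.37), so that within clusters the excess was not seen beyond counting error. In control-labelled cells 1 cell held both, too few for a comparison. Of the 18 pairs of the 8 genes with a product of at least 5 cells in the cKO-labelled library, this was the 1 pair whose interval lay above 1, and 0 lay below. Of 13 such pairs in the control-labelled library 0 lay above and 1 below, Inhbb with Acvr1, at 3 cells against 9.73. Without thinning, and with the product taken within 10 bins of depth, that pair was at 1.03 and the Inhba and Fst pair of the cKO-labelled library at 2.06.

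**Figure D5:**
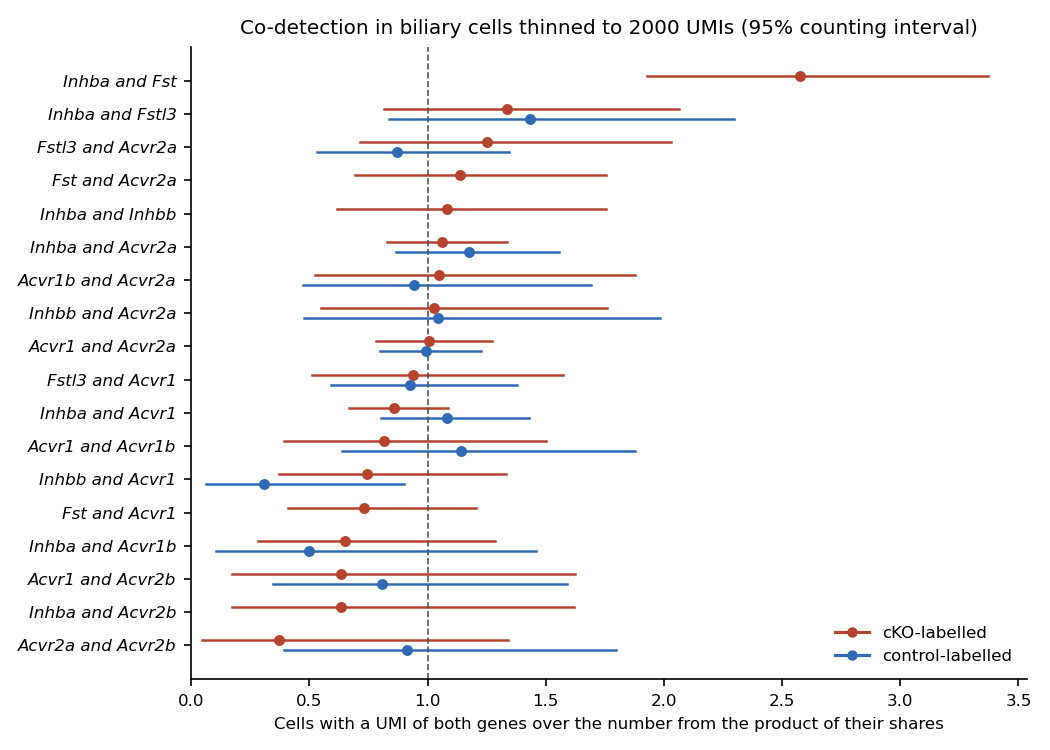
Number of biliary cells with a UMI of both genes over the number from the product of their shares (horizontal axis from 0), for each pair with a product of at least 5 cells, in cells thinned to 2000 UMIs. Points are ratios and lines 95% counting intervals, red for the cKO-labelled and blue for the control-labelled library. Inhba and Fst stand at 2.58 in the cKO-labelled library, and every other interval but that of Inhbb and Acvr1 in the control-labelled library includes 1.

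Receptor transcripts were seen in cells with and without Inhba at shares whose intervals overlapped. A UMI of a type I receptor gene (Acvr1 or Acvr1b) was seen in 17.3% (13.9 to 21.1) of the 440 cKO-labelled thinned cells with Inhba and in 21.1% (19.3 to 22.9) of the 1998 without. For a type II receptor gene (Acvr2a or Acvr2b) the shares were 17.3% (13.9 to 21.1) and 16.7% (15.1 to 18.4). In control-labelled cells the type I shares were 21.9% (16.9 to 27.6) and 20.9% (19.4 to 22.6), and the type II shares 20.7% (15.7 to 26.3) and 18.3% (16.8 to 19.8). Both types were seen together in 84 cKO-labelled cells (3.45%) and 105 control-labelled ones (3.78%). The type I transcript in these cells was mostly Acvr1, and Acvr1b was seen with a type II receptor in only 12 cells of each library (0.492% and 0.432%). Transcript capture at 2000 UMIs per cell limits all of these shares, and a cell without a UMI may still express the gene.

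In biliary cells the genes most like Inhba, by the ratio of their mean thinned count in cells with and without an Inhba UMI, were Adamtsl1, Fga, Pakap, Ankrd1 and Adgrv1, out of 6682 genes. Adamtsl1 was 4.86 times as high in cKO-labelled cells with Inhba (440 cells) as in those without, and 3.61 times in the control-labelled library (242 cells). Fga, which encodes the fibrinogen alpha chain, had ratios of 2.76 and 2.86, the latter from a low mean of 0.012 UMIs per cell with Inhba. Adgrv1 had ratios of 2.42 and 3.09, the former from a low mean of 0.018 UMIs per cell with Inhba. Ankrd1, an ankyrin repeat gene, was abundant, with 3.28 and 4.27 UMIs per cell with Inhba against 1.08 and 1.70 per cell without. For Fst only the cKO-labelled library had the 50 cells needed, with 114. The genes most like it were Ccn2, a matricellular protein gene (7.25 times), Nid1, which encodes the basement membrane protein nidogen (5.81), the chemokine gene Ccl2 (5.72), Gc, which encodes vitamin D binding protein (5.12), and Inhba itself (5.06). These ratios were taken over all biliary cells of a library, not within clusters. On the same split, some marker sums of other cell types were higher in the cells with Inhba. Their log2 ratios were 1.33 and 0.98 for the mesenchymal, 0.80 and 0.58 for the hepatocyte and 1.14 and 0.77 for the immune list. The mesothelial list was lower in the cKO-labelled library, at -0.78 (-1.20 to -0.39), and stood at -0.15 (-0.65 to 0.32) in the control-labelled one. The endothelial list stood at -0.05 (-0.71 to 0.56) and 0.32 (-0.32 to 0.91). The biliary list was at -0.16 (-0.19 to -0.13) and -0.01 (-0.04 to 0.02). The part of these differences in the likeness was not tested.

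Of 60 other genes of the pathway, 32 had 200 UMIs or more in biliary cells. Of these 3 passed 2-fold upwards in the cKO-labelled library and 0 downwards, where 2.25% and 1.73% of all tested genes did so, their median log2 ratio was 0.03, and all 3 were among the 12 measured SMAD2/3 response and feedback genes. Ltbp2, which encodes a latent TGF-beta binding protein, went from 9 control-labelled to 231 cKO-labelled UMIs, with a ratio of 4.37 (3.49 to 5.58). Cdkn2b, a cell cycle inhibitor gene, stood at 13.6 and 4.99 CPM with a ratio of 1.44 (1.02 to 1.89), and Ccn2 at 31.1 and 13.0 CPM with a ratio of 1.26 (0.99 to 1.53). Among the pathway genes reported here, all wells of the cKO-labelled library stood above all others for these 3 and for Skil (0.48) and Bmp6 (0.27), where 7.57% of all tested genes did so. They stood below, where 8.48% of all did so, for Fstl4 (-0.80), Junb (-0.50) and Tgif1 (-0.49). Of the cKO-labelled UMIs, the Hp cluster held 79.7% of those of Ccn2 and 76.6% of those of Ltbp2 but 30.4% of those of Cdkn2b. The 5 other ligands measured ranged from -0.61 (Tgfb3) to 0.27 (Bmp6), the 5 other receptors from -0.18 (Tgfbr3) to 0.57 (Tgfbr2) and the 7 SMADs from -0.12 (Smad2) to 0.41 (Smad5). Pmepa1 and Smad7, both feedback inhibitors of the pathway, stood at ratios of 0.00 and 0.02. These do not stand for the response and feedback list, which ranged from -0.50 (Junb) to 4.37 (Ltbp2). In that list Skil was at 0.48 (0.39 to 0.57), Smurf1 at 0.16 (0.05 to 0.26) and Ski at 0.12 (0.01 to 0.22), while Tgif1 was at -0.49. The response list was drawn up with earlier results of these data known and is not independent evidence of a direction.

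In endothelial cells the order of the subunits per kilobase of exon was the reverse of that in biliary cells, with Inhbb at 12.6 and 11.1 CPM per kilobase against 3.96 and 2.46 for Inhba. Inhbb had 17 UMIs among 88 endothelial cells of the cKO-labelled library and 18 among 120 of the other, 53.8 CPM (31.3 to 86.1) and 47.1 CPM (27.9 to 74.5). Those levels were above the biliary ones by log2 ratios of 1.75 (0.94 to 2.46) and 2.29 (1.496 to 3.025). Inhba had 8 and 6 UMIs, 25.3 CPM (10.9 to 49.8) and 15.7 CPM (5.76 to 34.2), with log2 ratios to biliary cells of -3.65 (-4.87 to -2.67) and -2.23 (-3.68 to -1.11). Of the Inhba UMIs, 6 of 8 and 6 of 6 were in the 29 and 41 endothelial cells that also held an Epcam or Krt19 UMI. The 59 and 79 endothelial cells that held none had 16 of 17 and 12 of 18 Inhbb UMIs. In those cells Inhba stood at 12.2 CPM (1.47 to 43.9) and 0 CPM (up to 15.3). Inhbb stood there at 97.3 CPM (55.6 to 158) and 49.7 CPM (25.7 to 86.7). The control-labelled Inhbb level was thus close to the 47.1 CPM of all endothelial cells of that library.

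Fst had 0 UMIs in the endothelial cells of either library, that is in 0 of 88 cells, which allows a share of up to 3.41%, and in 0 of 120 cells, which allows up to 2.5%. These limits are 3 cells of the total, below the upper ends of the exact 95% intervals (4.11% and 3.03%), and they limit cells with a UMI, not cells that express the gene. Against a floor of 3 UMIs over the class, Fst in cKO-labelled biliary cells was at least 4.97-fold higher than in the endothelial cells of that library, while the exact 95% limit of the log2 ratio of endothelial over biliary cells was -2.01, a lesser difference. In the control-labelled library the biliary level was itself under the floor, and no fold is given. Fstl3 had 2 and 1 UMIs. For the more abundant receptors the intervals of the log2 ratio of endothelial over biliary cells spanned 0, at -0.03 (-0.57 to 0.46) and 0.11 (-0.32 to 0.52) for Acvr1 and -0.46 (-1.17 to 0.18) and -0.42 (-1.01 to 0.11) for Acvr2a. Acvr1b, with 5 and 12 UMIs, and Acvr2b, with 4 in each library, were too few to separate the classes. The median endothelial cell was shallower than the median biliary cell, and without thinning Inhbb was seen in 11.4% and 13.3% of endothelial cells against 7.77% and 3.16% of biliary cells. The 2 libraries did not differ beyond counting error in the endothelial level of any of the 8 genes for which both had a UMI, the intervals of their levels overlapping for each.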

How the data were processed

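Single cells were barcoded by a split-pool method after fixation, per the labels' protocols. The authors deposited whole-number UMI counts per cell and gene, with gene and cell tables, per the file headers; the genome build is GRCm39, per the submitters' processing notes, and the aligner, annotation, strand setting and choice of barcodes are not given in the sources used here. From those counts, cells were filtered and classed as described in the report, and UMIs were summed per library and class. CPM is per 1000000 UMIs of the class. Log2 ratios had 0.5 counts added at the mean total. Intervals are exact Poisson, Clopper-Pearson or conditional binomial ones at 95%, for counting error only, and the interval at an equal mix of clusters is a normal one on the log scale. Thinning drew 2000 UMIs per cell without replacement. Scrublet marked 12 of 6220 kept cells (0.193%), which is under 0.5% and shows that the caller did not work here, so no doublets were removed. Clustering used scanpy 1.11.5 with 2000 variable genes, 30 principal components, 15 neighbours and Leiden at resolution 0.5. TMM factors came from edgeR 4.0.16 and size factors from DESeq2 1.42.0, as alternatives only. The ratio and thinning code was tested on simulated data. The genes, pathway and marker lists, classes and the rule for like genes were chosen with earlier results of these data known. Genes were named by these rules: all 8 members, the 5 genes of highest likeness to Inhba and to Fst, and pathway genes at least 2-fold apart. Other genes were named after their values were seen. These were pathway genes whose wells do not overlap, the ends of a list's range, Pmepa1, Smad7, Smurf1, Ski and the genes that lead a cluster. For 1 pathway gene the values are not reported here.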

Additional observations from a re-analysis of the deposited data

How the results depend on the processing

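Of 308 alternative values, 250 stayed within the counting interval of the reported value or, for counts of genes, within 1.5 times, 55 lay outside, and in 3 more a ratio whose interval excluded 0 changed sign. These were Inhba at an equal mix of the shared clusters (log2 ratio -0.10) and, without the Hp and Medag clusters, Inhba (-0.93) and Fst (-0.033); both alternatives were added after the data were seen. For Acvr1b and Acvr2b, whose intervals spanned 0, the sign also changed: Acvr1b was at 0.04 as a mean over cells, 0.13 in thinned cells and 0.27 without those 2 clusters, and Acvr2b at 0.11 without them. At the equal mix Inhbb was at 0.38, Fst at 0.90, Fstl3 at -0.45 and Acvr1 at -0.031. Without those 2 clusters Fstl3 was at -1.25, and 132 genes were at least 2-fold higher and 255 lower. As a mean over cells Inhba was at 1.85 and Fst at 3.35, and in thinned cells at 1.86 and 3.45, with 110 genes higher, where fewer genes passed the minimum. Without cells of 10 or more UMIs of the gene, another added alternative, Inhba was at 0.92; those cells were chosen by the gene's own count, so that this ratio had to fall. A minimum of 100 UMIs gave 264 genes lower, and no minimum gave 3887 higher and 4169 lower. Leaving out each well in turn gave 1.998 to 2.18 for Inhba, 114 to 386 genes lower, the latter without D9, and no change of sign for any of the 8 genes. Shares moved with depth: unthinned and at 1000 UMIs Inhba was seen in 27.5% and 12.6% of cKO-labelled and 11.9% and 5.52% of control-labelled cells, and Fst in 8.20% and 2.86% of cKO-labelled cells. In control-labelled endothelial cells with no Epcam or Krt19 UMI the Inhba level was 0. Except where a cause is stated, the cause was not tested. No paired analysis was possible because each group has 1 library.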

Other observations

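Kept cells that fell in neither class, with no Epcam or Krt19 UMI and fewer than 5 endothelial UMIs, numbered 77 and 92 (cKO-labelled first) and entered no comparison above. Inhba stood there at 397 CPM (318 to 490) and 160 CPM (109.4 to 226), from 86 and 32 UMIs, and Fst at 125 CPM (82.1 to 181) from 27 cKO-labelled UMIs against 1 control-labelled UMI. Their median depths were 2362 and 1913.5 UMIs.

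A small cluster of biliary cells led by Gnat3, Eya1 and Rgs13, with 17 cKO-labelled and 10 control-labelled cells, had 0 UMIs of Inhba, Inhbb and Fst in both libraries. Acvr1b was detected there with 7 and 3 UMIs, or 69.5 CPM (27.9 to 143) and 91.7 CPM (18.9 to 268), and Acvr1, at 2 and 1 UMIs, stood at 19.9 CPM (2.40 to 71.7) and 30.6 CPM (0.774 to 170). The counts are small and the cells few.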
